A study of Homo sapiens with 13 samples.

Results

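Small nucleolar RNA (snoRNA) host genes are genes that carry snoRNA genes inside their own span. The 38 hosts described here are a named list of 17 noncoding and 21 protein-coding genes, out of 59080 genes of the RefSeq table on chromosomes 1 to 22 and X. They were taken by name and not by a cut on any measured value, but with earlier results of these data known. All 38 were found in the table. Hybrids between DNA and RNA were mapped in U2OS, a human osteosarcoma cell line with a wild-type genotype in the labels, by immunoprecipitating sonicated genomic DNA with the hybrid-binding antibody S9.6 and sequencing it (DRIP-seq). The cells had been transfected with siRNA against REXO4 (siREXO4), siRNA against RNaseH1 (siRNaseH1) or control siRNA (siCtrl), and 3 S9.6 libraries per transfection were merged by the authors into 1 peak list each. By its title, the study asked whether both enzymes act on hybrids in the same regions of the genome. Because each transfection has a single merged list, no value has a replicate error and no test between transfections was possible.

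Most snoRNAs of human cells are cut out of introns of a host transcript after splicing and debranching of the intron. Box C/D snoRNAs guide 2′-O-methylation and box H/ACA snoRNAs guide pseudouridylation of ribosomal RNA, while the related scaRNAs act in Cajal bodies. Coding hosts often make proteins of the translation and ribosome-building machinery, and many noncoding hosts make a spliced transcript that is rapidly decayed while the introns yield the stable product. RNaseH1 degrades the RNA strand of a DNA-RNA hybrid, and REXO4 belongs to a family of predicted exonucleases.

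The siREXO4 list held 12687 peaks, the siRNaseH1 list 20954 and the siCtrl list 4458 on the chromosomes used. Genome-wide expected coverage, as the peaks give it, came to 1.41 fragments for siREXO4, 1.36 for siRNaseH1 and 1.28 for siCtrl, so the lists differ far more in peak number than in background. Read depth is unknown. Intervals given with shares and ratios cover counting error only, at the 95% level. More cells with a hybrid and more hybrid per cell cannot be told apart in these bulk data, and RNA levels, of the hosts as of the targeted REXO4 and RNaseH1, are not measured by peak lists.

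A host was counted as holding a peak when a peak overlapped its RefSeq span or the 2 kb on either side by at least 1 bp. In the siREXO4 list 24 of 38 hosts held a peak (63.2%, Wilson interval 47.3 to 76.6%), against 16.4% of all genes. In the siRNaseH1 list 33 hosts did (86.8%, 72.7 to 94.2%), against 19.0% of all genes. In the siCtrl list 16 hosts did (42.1%, 27.9 to 57.8%), against 5.92% of all genes. The hosts therefore stood above the all-gene share in every list, in siCtrl cells too. When the knockdown lists were cut to the length of the siCtrl list by rank, 17 hosts held a siREXO4 peak (44.7%, against 8.82% of all genes) and 25 a siRNaseH1 peak (65.8%, against 8.00%), with 16 in siCtrl as before.

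Among noncoding hosts, 9 of 17 held a siREXO4 peak (52.9%, 31.0 to 73.8%), 14 a siRNaseH1 peak (82.4%, 59.0 to 93.8%) and 5 a siCtrl peak (29.4%, 13.3 to 53.1%). The share of all lncRNA genes with a peak was 10.9% in siREXO4, 11.5% in siRNaseH1 and 3.33% in siCtrl. Restricted to lncRNA genes with a span between the quartiles of the noncoding hosts (3674 to 7585 bp), it was 9.02%, 9.65% and 2.20% in the same lists. Among coding hosts, 15 of 21 held a siREXO4 peak (71.4%, 50.0 to 86.2%), 19 a siRNaseH1 peak (90.5%, 71.1 to 97.3%) and 11 a siCtrl peak (52.4%, 32.4 to 71.7%). The share of all protein-coding genes was 33.7% in siREXO4, 39.2% in siRNaseH1 and 12.0% in siCtrl. For protein-coding genes with a span between the quartiles of the coding hosts (8897 to 37483 bp) it was 33.3%, 40.0% and 10.0% in the same lists. The noncoding shares were the lower ones in all 3 lists, but the intervals of noncoding and coding hosts overlapped in each.

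**Figure D1:**
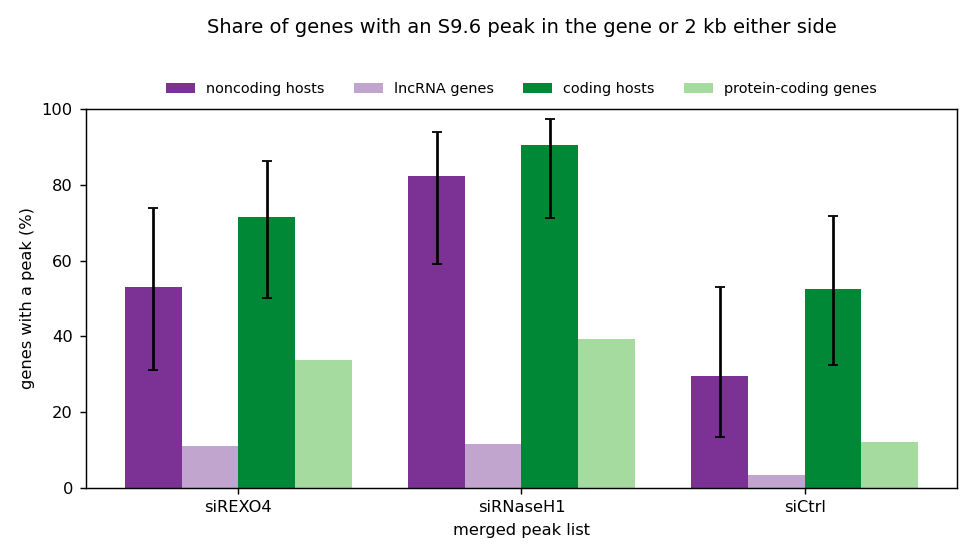
Share of genes with a peak in the span or the 2 kb on either side, in percent, for noncoding hosts, all lncRNA genes, coding hosts and all protein-coding genes in each of the 3 peak lists; error bars on the hosts are Wilson intervals that cover counting error only. Hosts lie above their background in every list, and in siRNaseH1 82.4% of noncoding hosts and 90.5% of coding hosts held a peak.

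Genes outside the named list that also carry a snoRNA gene gave a closer background. Of 39 other lncRNA genes with a snoRNA gene inside, 41.0% held a siREXO4 peak, 53.8% a siRNaseH1 peak and 20.5% a siCtrl peak. Of 234 other protein-coding genes with a snoRNA gene inside, 67.1% held a siREXO4 peak, 75.2% a siRNaseH1 peak and 36.3% a siCtrl peak. Both groups stood between the named hosts and their biotype in every list, and in siREXO4 the named coding hosts (71.4%) and the other coding genes (67.1%) were close.

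Summed over the hosts there were 51 siREXO4, 121 siRNaseH1 and 18 siCtrl peaks. Noncoding hosts held 15 siREXO4, 43 siRNaseH1 and 6 siCtrl peaks, and coding hosts 36, 78 and 12 in the same lists. Of the 38 hosts, 26 had more siRNaseH1 than siREXO4 peaks, 9 had the same number (those without either included) and 3 had fewer, namely SNHG15, CNOT1 and PRRC2A. The siRNaseH1 list is also the longer one (20954 peaks against 12687 in siREXO4), and the same count was not made for all genes. Noncoding hosts are short, with a median span of 4846 bp against 17057 bp in coding hosts. Per megabase of span plus flanks, noncoding hosts held 80.3 siREXO4 peaks (exact Poisson interval 44.9 to 132), 230 siRNaseH1 peaks (167 to 310) and 32.1 siCtrl peaks (11.8 to 69.9). Coding hosts held 52.1 (36.5 to 72.1), 113 (89.2 to 141) and 17.4 (8.97 to 30.3) per megabase in the same lists. Background densities were far lower, at 4.65 in siREXO4, 5.88 in siRNaseH1 and 1.28 in siCtrl for all lncRNA genes, and 8.18, 14.5 and 2.28 for all protein-coding genes, so that there the protein-coding class was the denser one. Between the classes of hosts, only in siRNaseH1 did the intervals not overlap, and peaks of 1 host are not independent of each other. Gene length differs between the classes of hosts, and also between the hosts and their background, whose densities weigh long genes most. Background densities for genes of matched span were not computed. The part of gene length in these differences in density was not tested.

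A gained locus is a knockdown peak that shares no base with any siCtrl peak. There were 21 hosts with a locus gained in siREXO4 (55.3%, 39.7 to 69.9%), against 14.8% of all genes, 31.3% of protein-coding genes and 9.77% of lncRNA genes. There were 32 hosts with a locus gained in siRNaseH1 (84.2%, 69.6 to 92.6%), against 17.8% of all genes, 37.6% of protein-coding genes and 10.6% of lncRNA genes. A siREXO4 gained locus overlapped by a siRNaseH1 gained locus was found at 20 hosts (52.6%, 37.3 to 67.5%), against 9.50% of all genes, 20.8% of protein-coding genes and 5.86% of lncRNA genes. These 20 were 9 noncoding and 11 coding hosts, and every noncoding host with a siREXO4 peak was among them. The siREXO4 and shared counts depended on the setting. With the lists cut to the siCtrl length, 10 hosts had a locus gained in siREXO4 (26.3%, against 7.13% of all genes), 22 in siRNaseH1 (57.9%, against 6.49%) and 9 in both (23.7%, against 4.05%). With all lists, siCtrl included, limited to peaks of at least 5-fold, the siREXO4 count was 13 and the count for both 13. With summits of at least 2 times the siCtrl calling limit they were 12 and 11. The all-gene share was not computed at these last settings, so these counts have no background beside them.

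Merged across the lists, the peaks formed 129 loci. There were 74 with a siRNaseH1 peak alone, 28 with a peak in both knockdowns and none in siCtrl, 13 in all 3 lists, 9 with a siREXO4 peak alone, 4 in siRNaseH1 and siCtrl, and 1 in siCtrl alone, within CCAR1. By host, 15 had a peak in each list, 9 in both knockdowns without siCtrl and 8 in siRNaseH1 alone. SNX5 alone had siRNaseH1 and siCtrl peaks without a siREXO4 peak, and 5 hosts had no peak in any list. The lists differ in length (12687 siREXO4, 20954 siRNaseH1 and 4458 siCtrl peaks). The shares of all genes and of all loci with these patterns were not computed. These counts therefore do not show that the patterns are particular to the hosts.

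In siRNaseH1 the 3 hosts of highest fold, EIF4A1, TBRG4 and TAF1D, had that peak at their start. EIF4A1 makes an RNA helicase of translation initiation and carries 3 snoRNA genes. TBRG4 makes a mitochondrial RNA-binding protein and TAF1D a subunit of the selectivity factor of RNA polymerase I, the polymerase of ribosomal RNA genes. The stretch from 200 bases before to 20 bases after their transcription start is shown because the summits of these peaks lie just downstream of it. The sequences are from RefSeq on GRCh38.p14, which has the hg38 coordinates, and are written 5′ to 3′ on the gene's strand (chr17:7572625-7572844, plus strand for EIF4A1, chr7:45111678-45111897, minus strand for TBRG4 and chr11:93741476-93741695, minus strand for TAF1D). Capitals mark an unbroken run of C and T from the start base on, where the start base is a C.
EIF4A1: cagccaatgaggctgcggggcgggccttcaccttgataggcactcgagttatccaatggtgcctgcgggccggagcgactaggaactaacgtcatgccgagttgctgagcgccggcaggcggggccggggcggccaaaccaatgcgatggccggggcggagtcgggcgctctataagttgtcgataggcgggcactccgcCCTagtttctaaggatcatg
TBRG4: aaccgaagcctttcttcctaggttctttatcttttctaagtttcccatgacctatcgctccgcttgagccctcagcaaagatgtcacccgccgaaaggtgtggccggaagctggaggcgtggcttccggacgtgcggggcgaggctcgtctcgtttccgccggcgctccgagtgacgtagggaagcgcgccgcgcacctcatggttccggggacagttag
TAF1D: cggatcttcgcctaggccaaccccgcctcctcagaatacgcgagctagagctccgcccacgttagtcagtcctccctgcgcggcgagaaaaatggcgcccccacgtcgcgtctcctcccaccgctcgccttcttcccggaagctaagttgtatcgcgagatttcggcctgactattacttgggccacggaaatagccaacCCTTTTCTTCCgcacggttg

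At EIF4A1 (chromosome 17 from 7572825 to 7579006, plus strand) the start locus had a fold enrichment of 67.1 in siREXO4, 210 in siRNaseH1 and 31.4 in siCtrl. Fold enrichment here is the authors' own value of summit over local background within 1 list. It ranked 20 in the siREXO4 list, 5 in the siRNaseH1 list and 13 in the siCtrl list. The summits lay 151, 199 and 199 bp downstream of the annotated start in the same order, and the peaks were 2015, 2216 and 1598 bp wide. Across lists, recovered summit fragments can be compared after scaling to each list's background. The summit held 302 fragments in siREXO4, 712 in siRNaseH1 and 135 in siCtrl, which gave scaled ratios to siCtrl of 2.03 (1.65 to 2.50) for siREXO4 and 4.96 (4.12 to 6.01) for siRNaseH1. The locus was high in siCtrl already and higher in both knockdowns. Weaker peaks without a siCtrl counterpart lay past the end of the gene at 3.39-fold in siREXO4, and within it at 6.40-fold and at its end at 3.96-fold in siRNaseH1. The start of EIF4A1 also lies in the read-through gene SENP3-EIF4A1, and reads of the genes cannot be told apart.

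TAF1D (chromosome 11 from 93730194 to 93741495, minus strand) carries 8 snoRNA genes, as many as SNHG1, and had 1 peak in each list, at its start. The fold was 12.9 in siREXO4, 29.2 in siRNaseH1 and 6.10 in siCtrl, on 80 fragments in siREXO4, 166 in siRNaseH1 and 39 in siCtrl. The scaled ratio to siCtrl was 1.86 (1.25 to 2.80) for siREXO4 and 4.00 (2.81 to 5.83) for siRNaseH1. No peak was called over the rest of the gene, where the snoRNA genes lie. The peaks also overlap the neighbouring gene C11orf54.

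At TBRG4 (chromosome 7 from 45100100 to 45111697, minus strand) no siCtrl peak was called. Its start peak had 15.4-fold and 51 fragments in siREXO4, and 50.2-fold and 151 fragments in siRNaseH1. The summits lay 72 and 74 bp downstream of the start, and the siRNaseH1 to siREXO4 ratio of scaled fragments was 3.07. TBRG4 held the highest siRNaseH1 fold among hosts without a siCtrl peak.

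**Figure D2:**
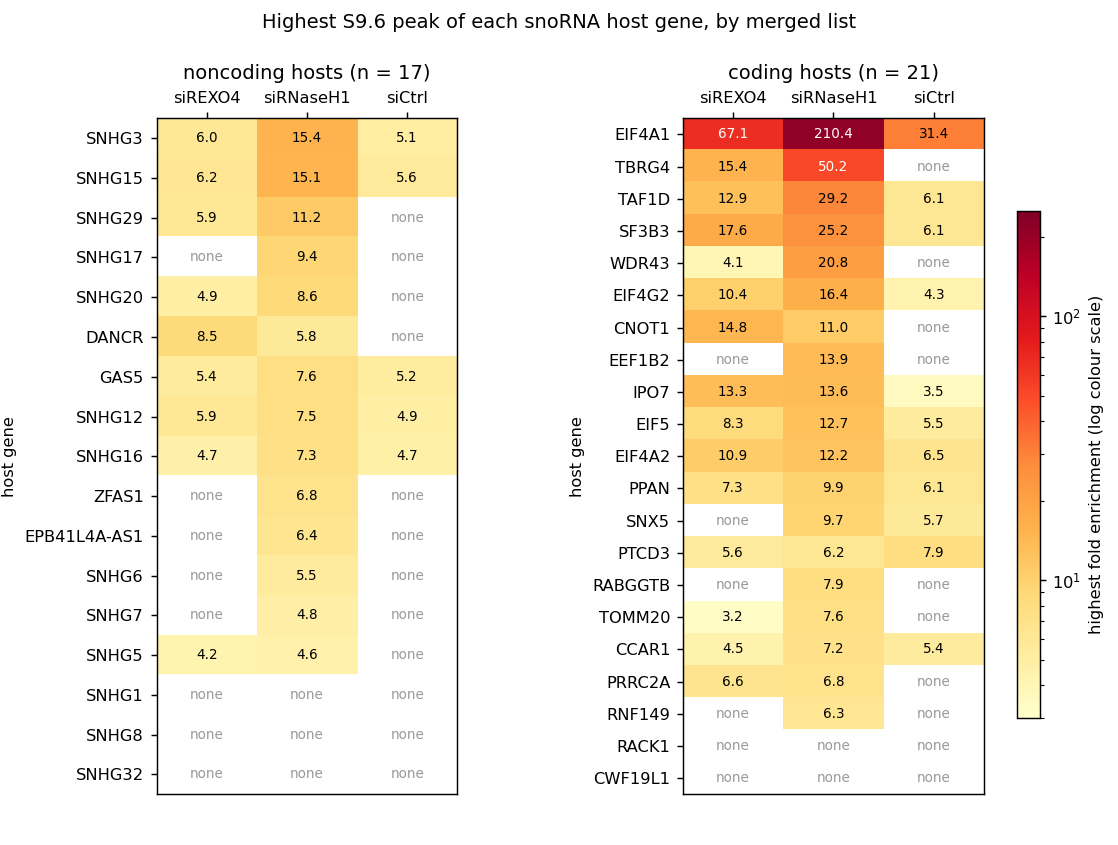
Highest fold enrichment of each host's peaks in the siREXO4, siRNaseH1 and siCtrl lists, printed in each cell and coloured on a log scale, with noncoding hosts on the left and coding hosts on the right. The highest peaks of a host can lie at different places in different lists. EIF4A1 has the highest value in each list (67.1, 210 and 31.4), and no noncoding host exceeds 15.4.

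Other coding hosts with roles in translation and ribosome building differed in where their highest peak lay. EIF4A2, a paralogue of EIF4A1, carries 5 snoRNA genes and had 10.9-fold in siREXO4, 12.2-fold in siRNaseH1 and 6.54-fold in siCtrl at its start, with a siRNaseH1 to siCtrl ratio of 1.97 (1.15 to 3.49). EEF1B2, a translation elongation factor subunit, had a start peak of 13.9-fold in siRNaseH1 and none in siREXO4 or siCtrl. EIF5, which acts in start codon selection, had 4 siREXO4, 6 siRNaseH1 and 1 siCtrl peak, with maxima of 8.30-fold in siREXO4, 12.7-fold in siRNaseH1 and 5.48-fold in siCtrl. Its peaks ran over the whole gene, and the siREXO4 peak at the start also overlaps EIF5-DT. The EIF5 maxima lay at separate places, 5165 bp from the nearest start in siREXO4, 1589 bp in siRNaseH1 and past the gene end in siCtrl. EIF4G2, a translation initiation factor related to EIF4G, had 4 siREXO4, 5 siRNaseH1 and 2 siCtrl peaks, with maxima of 10.4-fold, 16.4-fold and 4.35-fold in the same lists. PPAN, a factor of large ribosomal subunit maturation, had 4 siREXO4, 6 siRNaseH1 and 1 siCtrl peak, with maxima of 7.26-fold, 9.92-fold and 6.13-fold. Read-through and neighbouring genes (PPAN-P2RY11, P2RY11 and ANGPTL6) overlap some of the PPAN peaks.

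WDR43, a subunit of the processome that builds the small ribosomal subunit, held 10 siRNaseH1 peaks, the most of any host, against 1 siREXO4 peak and no siCtrl peak. Its highest siRNaseH1 peak reached 20.8-fold and lay 5717 bp into the gene, where the siREXO4 peak had 4.07-fold. RACK1, a scaffold protein of the small ribosomal subunit, had no peak in any list. CNOT1, the scaffold of the CCR4-NOT deadenylase, was the host with the most siREXO4 peaks, 8 against 6 in siRNaseH1 and none in siCtrl. Its highest peaks, 14.8-fold in siREXO4 and 11.0-fold in siRNaseH1, lay at the upper end of its span, and 2 peaks of each knockdown at the lower end lie over SETD6.

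Coding hosts with other roles were a mixed set. SF3B3, a subunit of the splicing factor SF3b, had 1 shared peak at the lower end of its span, with 17.6-fold in siREXO4, 25.2-fold in siRNaseH1 and 6.10-fold in siCtrl. Its scaled ratio to siCtrl was 2.90 (1.60 to 5.57) in siREXO4 and 4.26 (2.41 to 8.03) in siRNaseH1. IPO7, a nuclear import receptor, had 13.3-fold in siREXO4, 13.6-fold in siRNaseH1 and 3.49-fold in siCtrl at its start, with ratios to siCtrl of 2.52 (1.44 to 4.58) in siREXO4 and 4.02 (2.38 to 7.14) in siRNaseH1. IPO7 had 7 siRNaseH1 peaks in all, against 3 in siREXO4 and 1 in siCtrl. PTCD3, a protein of the mitochondrial ribosome, had 2 siREXO4, 2 siRNaseH1 and 1 siCtrl peak, at or beyond its end. The locus nearest its end was gained in both knockdowns, with 5.63-fold in siREXO4 and 6.17-fold in siRNaseH1. The locus farther out had 5.32-fold in siREXO4, 5.99-fold in siRNaseH1 and 7.88-fold in siCtrl. This locus was the exception in direction among host loci with a peak in all 3 lists, below siCtrl in both knockdowns. Its scaled ratio to siCtrl was 0.543 (0.242 to 1.17) in siREXO4 and 0.705 (0.336 to 1.45) in siRNaseH1, and this locus lies over the neighbouring gene IMMT.

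TOMM20, the import receptor of the outer mitochondrial membrane, had 5 siRNaseH1 peaks of up to 7.60-fold and 1 siREXO4 peak of 3.23-fold, at separate places. CCAR1, a regulator of cell cycle and apoptosis, had 5 siRNaseH1 peaks, 1 siREXO4 peak and 1 siCtrl peak, and the siCtrl peak (5.43-fold) overlapped neither knockdown. PRRC2A had 2 siREXO4 peaks of 6.64-fold and 1 siRNaseH1 peak of 6.79-fold around its start. SNX5, an endosomal sorting nexin, had 6 siRNaseH1 peaks of up to 9.66-fold, no siREXO4 peak and 1 siCtrl peak of 5.71-fold. RABGGTB, a subunit of the enzyme that prenylates Rab proteins, had 3 siRNaseH1 peaks of up to 7.86-fold and RNF149, a ubiquitin ligase, 1 of 6.26-fold. Neither had a siREXO4 or siCtrl peak, and CWF19L1 had no peak in any list.

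The median fold of noncoding host peaks was 4.84 in siREXO4, 5.76 in siRNaseH1 and 4.96 in siCtrl, against 5.63, 6.14 and 5.90 for coding host peaks in the same lists. None of 5 siCtrl summits on noncoding hosts with a start in the promoter table lay within 1 kb of it, against 4 of 11 on coding hosts. SNHG3 (chromosome 1 from 28505943 to 28510892, plus strand) had 2 siREXO4, 5 siRNaseH1 and 1 siCtrl peak. Its highest folds were 6.01 in siREXO4, 15.4 in siRNaseH1 and 5.06 in siCtrl. At the locus shared by all 3 lists, with its siCtrl summit 3551 bp into the gene, the scaled siREXO4 to siCtrl ratio was 0.736 (0.326 to 1.63) and the siRNaseH1 to siCtrl ratio 2.88 (1.61 to 5.43). Coverage there was above siCtrl in siRNaseH1 and not told apart from siCtrl in siREXO4. All SNHG3 peaks also lie over RCC1. SNHG15 had 3 siREXO4, 2 siRNaseH1 and 1 siCtrl peak with maxima of 6.20-fold, 15.1-fold and 5.59-fold in the same lists. Its siRNaseH1 to siCtrl ratio was 3.48 (2.01 to 6.35) and its siREXO4 to siCtrl ratio 1.44 (0.756 to 2.81).

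GAS5 carries 11 snoRNA genes, the most of any host, and had 1 siREXO4, 4 siRNaseH1 and 1 siCtrl peak. Its highest folds were 5.44 in siREXO4, 7.57 in siRNaseH1 and 5.25 in siCtrl. The siREXO4 peak lay past the end of the gene, 6772 bp from the start. SNHG12 had maxima of 5.94-fold in siREXO4, 7.54-fold in siRNaseH1 and 4.87-fold in siCtrl, and SNHG16 had 4.70-fold, 7.34-fold and 4.71-fold in the same lists. These maxima lay at different places. For SNHG12 the siREXO4 and siCtrl maxima lay 1934 and 2411 bp past its end, over TRNAU1AP. Its siRNaseH1 maximum lay 294 bp downstream of the start. For SNHG16 the maxima lay 6532 bp from the start in siREXO4, 6527 bp in siRNaseH1 and 1757 bp in siCtrl. The siRNaseH1 to siCtrl ratios at loci of GAS5, SNHG12 and SNHG16 ran between 1.05 and 1.74, and each interval included 1.

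The noncoding hosts with peaks in both knockdowns and none in siCtrl were SNHG5, SNHG20, SNHG29 and DANCR. SNHG29 reached 5.94-fold in siREXO4 and 11.2-fold in siRNaseH1, with 4 siRNaseH1 peaks against 2 in siREXO4, most of them also over LRRC75A. SNHG20 had 5 siRNaseH1 peaks, up to 8.61-fold, and 2 siREXO4 peaks, up to 4.87-fold, all of which also lie over SEC14L1. SNHG5 had 1 peak at its start in each knockdown, 4.25-fold in siREXO4 and 4.60-fold in siRNaseH1. DANCR had 8.48-fold in siREXO4, the highest noncoding value of that list, and 5.76-fold in siRNaseH1. Its summits held 34 fragments in siREXO4 and 32 in siRNaseH1, a siRNaseH1 to siREXO4 ratio of 0.977 (0.584 to 1.63), and lay 201 bp downstream of the start in siREXO4 and 274 bp in siRNaseH1. The DANCR start is shown with that of SNHG12, the noncoding host with a long run of C and T at its start (chr4:52712194-52712413, plus strand for DANCR and chr1:28581854-28582073, minus strand for SNHG12), and capitals mark the run as above.
DANCR: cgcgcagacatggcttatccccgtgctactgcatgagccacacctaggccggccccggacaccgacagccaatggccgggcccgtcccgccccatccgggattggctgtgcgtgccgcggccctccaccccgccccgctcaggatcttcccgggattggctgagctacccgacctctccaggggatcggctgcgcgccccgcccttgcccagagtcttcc
SNHG12: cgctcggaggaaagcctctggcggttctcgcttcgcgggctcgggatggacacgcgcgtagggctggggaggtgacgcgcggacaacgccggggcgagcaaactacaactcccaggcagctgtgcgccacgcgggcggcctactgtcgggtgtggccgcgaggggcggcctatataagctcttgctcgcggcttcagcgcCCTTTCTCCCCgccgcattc

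Other noncoding hosts had peaks in siRNaseH1 alone. SNHG17 had 3 of up to 9.39-fold, ZFAS1 had 4 of up to 6.78-fold, SNHG6 had 2 of up to 5.45-fold and SNHG7 had 2 of up to 4.81-fold. The only peak of EPB41L4A-AS1, 6.36-fold, lay in the flank over EPB41L4A. SNHG1, with 8 snoRNA genes, SNHG8 and SNHG32 had no peak in any list. SNHG32 and PRRC2A lie in the major histocompatibility region of chromosome 6. The lists also hold peaks on alternate contigs of chromosome 6 that were not assigned to genes (112 in siREXO4, 143 in siRNaseH1 and 14 in siCtrl). These were counted over all alternate contigs of the chromosome and not for this region alone.

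**Figure D3:**
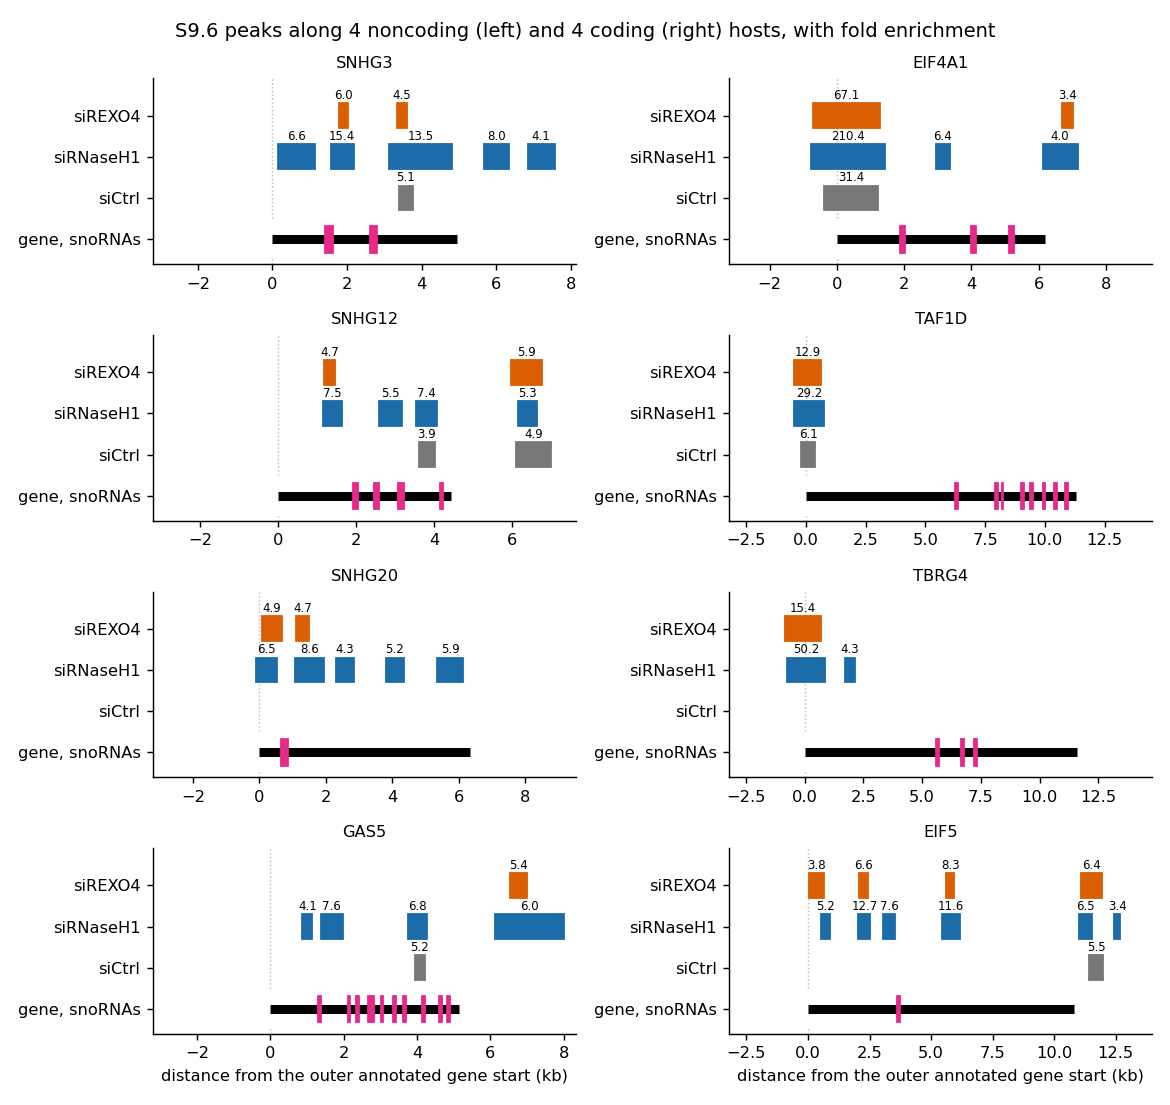
Peaks of each list along 4 noncoding (left) and 4 coding hosts (right) by distance in kilobases from the outer annotated gene start, with fold enrichment above each peak and snoRNA genes as pink bars. The highest peaks of EIF4A1, TAF1D and TBRG4 sit at the start, away from the snoRNA genes, and those of SNHG3, GAS5 and EIF5 are spread along the gene and its flank. The highest SNHG20 peak lies 302 bp from the start in siREXO4 and 1296 bp from it in siRNaseH1.

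Peaks within 1 kb of a start were a minority, and the share differed by list. In siREXO4 14 of 39 summits on hosts with a start in the promoter table lay within 1 kb of the nearest one (35.9%), in siRNaseH1 18 of 106 (17.0%) and in siCtrl 4 of 16 (25.0%), while these places make up 10.1% of the windows. The count of start peaks was thus higher in siRNaseH1 than in siREXO4 but its share lower. In siREXO4 4 of 12 summits on noncoding hosts (33.3%) and 10 of 27 on coding hosts (37.0%) lay there. In siRNaseH1 it was 7 of 39 (17.9%) on noncoding and 11 of 67 (16.4%) on coding hosts. Across the genome, 28.1% of 12077 siREXO4 peaks lay within 1 kb of a start, 17.6% of 19958 siRNaseH1 and 10.7% of 4190 siCtrl peaks. These are fewer peaks than the full lists hold. Host summits were drawn from gene windows and measured to the host's own starts. The host and list shares are therefore unlike measures and do not rank the hosts against their list. The host shares also rest on few peaks. On coding hosts, siREXO4 peaks near a start had a median fold of 8.75 against 4.98 farther away, and siRNaseH1 peaks 12.2 against 6.05. On noncoding hosts the medians were 4.79 near and 5.14 farther away in siREXO4, and 6.49 and 5.40 in siRNaseH1.

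**Figure D4:**
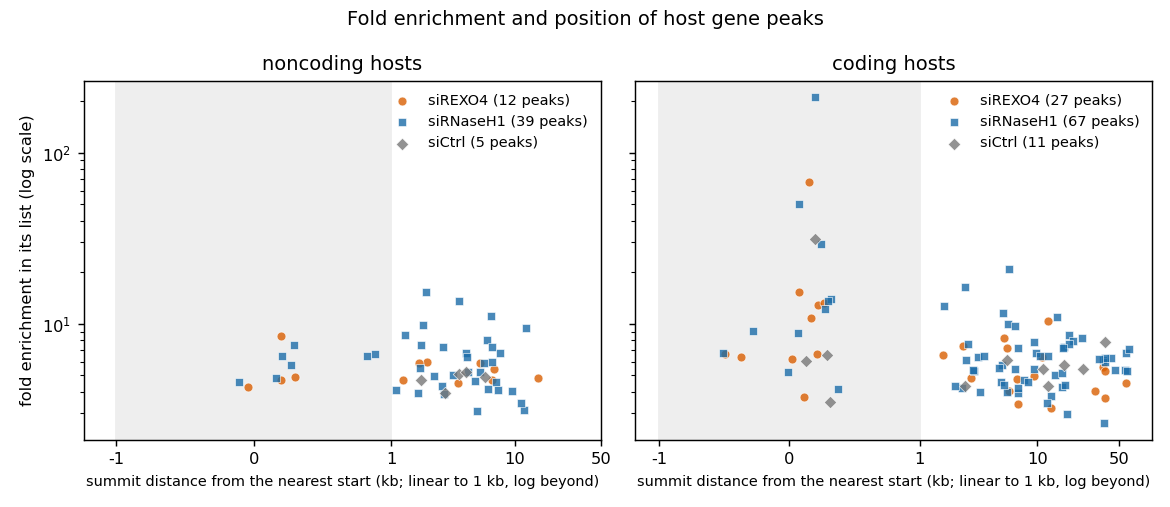
Fold enrichment on a log axis of host peaks against the distance of the summit from the nearest annotated start in kilobases (linear to 1 kb and log beyond). Peaks are shown by list and host class, with the 1 kb around the start shaded. SNHG6, SNHG15, CNOT1 and SF3B3, without a start in the promoter table, are not drawn. The highest peak of coding hosts in each list lies at a start (EIF4A1), while among noncoding hosts the highest siREXO4 peak does (DANCR, 8.48-fold) and the highest siRNaseH1 peak does not (SNHG3, 15.4-fold).

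The hosts carry 95 annotated snoRNA genes, 50 in noncoding hosts (33 box C/D, 16 box H/ACA and 1 scaRNA) and 45 in coding hosts (22 box C/D and 23 box H/ACA). Peaks overlapped 1 of them in siREXO4, 5 in siRNaseH1 and 1 in siCtrl, all in noncoding hosts. In siREXO4 this was SCARNA16 of SNHG20. In siRNaseH1 the 5 were SNORA73A of SNHG3, SNORA61 of SNHG12, SNORD1B of SNHG16, and SNORD80 and SNORD74 of GAS5. SNORD74 shares a single base with its peak, and in siCtrl SNORD80 was the one overlapped. No summit lay inside a snoRNA gene (0 of 51, 121 and 18), while snoRNA genes cover 1.16% of the windows. That cover was 2.61% on noncoding hosts and 0.763% on coding hosts. Within 300 bp of a snoRNA gene lay 0 of 51 siREXO4 summits, 5 of 121 siRNaseH1 summits (4.13%) and 1 of 18 siCtrl summits (5.56%), against 6.53% of the windows. On noncoding hosts it was 0 of 15, 5 of 43 (11.6%) and 1 of 6 (16.7%) in the same lists, against 15.0% of the windows. On coding hosts it was 0 of 36, 0 of 78 and 0 of 12, against 4.25% of the windows.

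Loci with a peak in more than 1 list allow a comparison of coverage, on a choice of loci that had to be called in both. For siREXO4 against siCtrl, 2 of 3 noncoding loci had a ratio above 1, none with an interval wholly above 1, and the median was 1.21. For coding hosts 9 of 10 were above 1, 4 wholly, with a median of 1.68. For siRNaseH1 against siCtrl all 6 noncoding loci were above 1, 2 wholly, with a median of 1.73, and 10 of 11 coding loci, 7 wholly, with a median of 2.27. For siRNaseH1 against siREXO4, 12 of 13 noncoding loci were above 1, 7 wholly, with a median of 1.85, and 26 of 28 coding loci, 12 wholly, with a median of 1.54. Over all loci shared by 2 lists, hosts included, 61.0% of 1802 loci were above 1 for siREXO4 against siCtrl, with a median of 1.13. The same values were 82.0% of 1985 loci and 1.59 for siRNaseH1 against siCtrl, and 75.6% of 6640 loci and 1.32 for siRNaseH1 against siREXO4. Most shared loci of the lists thus had ratios above 1 as well. No interval of a host locus lay wholly below 1 in any of the 3 comparisons. The 2 comparisons with siCtrl share the siCtrl list, so they are not independent.

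**Figure D5:**
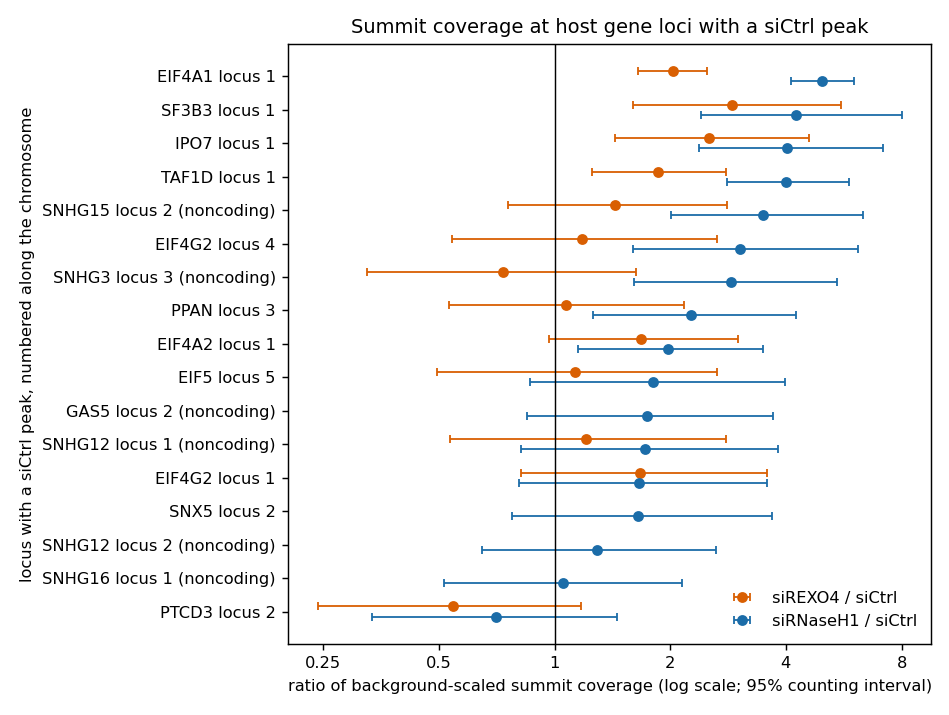
Ratio of background-scaled summit fragments on a log axis at each host locus with a siCtrl peak and a knockdown peak, for siREXO4 over siCtrl and siRNaseH1 over siCtrl, with intervals that cover counting error only. The siRNaseH1 to siCtrl medians are 1.73 for noncoding and 2.27 for coding hosts, and the PTCD3 locus lies below 1 in both knockdowns.

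Start sequences were found in the RefSeq promoter table for 34 hosts, 38 windows in all, and not for SNHG6, SNHG15, CNOT1 and SF3B3. A 5′ terminal oligopyrimidine tract, the sequence by which growth signals control translation of many ribosomal and translation factor mRNAs, was scored as a C at the start base followed by at least 4 more C or T on the gene's strand. It was found in 12 of 34 hosts (35.3%), against 5.16% of genes in the whole table. These were 4 of 15 noncoding hosts (SNHG5, SNHG12, SNHG32 and ZFAS1) and 8 of 19 coding hosts (EEF1B2, EIF4A2, IPO7, RABGGTB, RACK1, SNX5, TAF1D and TOMM20). RACK1 and SNHG32 had such a tract but no peak in any list. RACK1, shown as the coding one of this pair, has the tract after a run of pyrimidines that begins before the start base (chr5:181243887-181244106, minus strand).
RACK1: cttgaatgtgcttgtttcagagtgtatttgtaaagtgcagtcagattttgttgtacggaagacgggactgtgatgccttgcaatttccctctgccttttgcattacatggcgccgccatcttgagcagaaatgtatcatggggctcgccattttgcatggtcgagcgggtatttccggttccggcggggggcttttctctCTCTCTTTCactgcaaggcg

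A siREXO4 summit lay within 1 kb of the start in 5 of the 12 hosts with the tract and in 8 of the 22 without. For siRNaseH1 it was 8 of 12 with and 10 of 22 without, and for siCtrl 3 of 12 with and 1 of 22 without. Start peaks were called at hosts scored without a tract, such as TBRG4 and DANCR. The score reads only from the annotated start base, so a host scored without a tract may have one at another start. In the 300-base windows (250 bases before and 50 after the start), the median GC content was 61.3% in hosts against 58.7% in all promoters, and the median number of CpG was 26.5 against 14.0. On both strands, CACGTG occurred in 10.5% of host windows against 7.27% of all, CCGGAAG in 15.8% against 10.3%, and TATAAA in 7.89% against 11.5%. These matches describe letters in the window and not bound sites.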

How the data were processed

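DRIP-seq in U2OS cells gave 13 samples: 9 S9.6 libraries, 3 inputs and 1 IgG library. Groups were taken from the titles, and only the 3 merged peak lists were used. The authors merged the replicates before calling, per the labels. MACS2 2.1.0.20150731 and hg38 are named in the submitters' processing notes, as are deepTools 3.5.1, SAMtools 1.17, HISAT2 2.2.1, Trim Galore 0.6.10 and Cufflinks. How each was run, which control library was set against the IP and what was done with duplicates is not given in the sources used here. Deposited fold enrichment (a ratio), deposited −log10 p and −log10 q values and the deposited score belong to the summit of each peak. The lowest deposited −log10 q was 1.32 in siREXO4, 1.37 in siRNaseH1 and 1.34 in siCtrl.

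Gene spans, snoRNA genes and symbols came from a RefSeq table of GRCh38.p14, which has no exon column, so peaks were not split into exons and introns. Starts and strands came from a RefSeq promoter table. Whole fragments at each summit were recovered from fold and p for 99.9% of siREXO4, 99.9% of siRNaseH1 and 99.8% of siCtrl peaks, within 0.001 in −log10 p, and divided by the background coverage of the list. Shares have Wilson intervals, densities exact Poisson intervals and ratios exact conditional intervals. No p-value is given. The recovery and the counting were tested on simulated data.

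The hosts and gene lists were chosen with earlier results of these data known. All hosts are accounted for. Full values go to hosts with a locus gained in both knockdowns, the 5 of highest fold per knockdown list and class, hosts with a siCtrl peak, and hosts with no peak. Alternatives were stricter q-values and folds, lists of equal length, other overlaps and flanks, and other rules for a gained locus. Computation ran in Python 3.11.15 (SciPy 1.17.1, pandas 2.3.3, NumPy 2.4.6), and plots were drawn with Matplotlib 3.10.9. Signals of single libraries, inputs and IgG were not analysed here.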

Additional observations from a re-analysis of the deposited data

How the results depend on the processing

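Of 87 values recomputed under other settings, 75 stayed within 1.5 times the reported count and 12 did not. With both knockdown lists cut to the siCtrl length, 9 noncoding hosts held a siRNaseH1 peak in place of 14. At a fold of at least 5, 3 noncoding hosts held a siCtrl peak in place of 5. Hosts with a locus gained in siREXO4, 21 as reported, were 13 at a fold of at least 5, 10 with lists cut to the siCtrl length, and 12 when a gained summit needed 2 times the siCtrl calling limit. Hosts with a locus gained in both knockdowns, 20 as reported, were 13, 9 and 11 under the same settings. The fold limit was applied to the siCtrl list too. All-gene shares were computed only for the main setting and for the lists of equal length. Counting a snoRNA gene only where a summit lay inside it gave 0 in siREXO4 (reported 1), 0 in siRNaseH1 (reported 5) and 0 in siCtrl (reported 1), and at a fold of at least 5 the siREXO4 count was 0. The cause of these shifts was not tested. No paired analysis was possible because each list merges the 3 replicates and its columns carry no replicate number. For the same reason no replicate could be left out. A siCtrl peak needed at least 7 fragments at its summit, and weaker enrichment is not seen. Peaks of neighbouring or read-through genes within a window count for the host.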

Other observations

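The proteins that assemble, carry and use snoRNAs are encoded by genes that mostly held a peak in the siRNaseH1 list. Of 22 such genes, 11 held a siREXO4 peak, 19 a siRNaseH1 peak and 6 a siCtrl peak, and 8 had a locus gained in both knockdowns. The shares of all protein-coding genes were 33.7% in siREXO4, 39.2% in siRNaseH1, 12.0% in siCtrl and 20.8% for both knockdowns. All 4 box C/D core genes had a siRNaseH1 peak, 3 a siREXO4 peak and 3 a siCtrl peak. NOP58, a box C/D core protein gene, held 16 siRNaseH1 peaks, with a highest fold of 7.12 in siREXO4, 36.2 in siRNaseH1 and 5.03 in siCtrl. FBL, the methyltransferase of the box C/D particle, had 9.14-fold in siREXO4, 14.9-fold in siRNaseH1 and 5.77-fold in siCtrl, and NOP56 had 13.8-fold in siRNaseH1 alone.

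All 4 box H/ACA core genes had a siRNaseH1 peak, 2 a siREXO4 peak and 1 a siCtrl peak. NOP10 reached 11.1-fold in siREXO4 and 16.8-fold in siRNaseH1, without a siCtrl peak. Of 13 assembly and transport factor genes, 6 held a siREXO4 peak, 10 a siRNaseH1 peak and 2 a siCtrl peak, among them the ATPase gene RUVBL1 with 9.40-fold in siREXO4 and 12.4-fold in siRNaseH1. ZNHIT3, ZNHIT6 and TGS1 had no peak in any list. DBR1, the lariat debranching enzyme, had a siRNaseH1 peak only. These counts describe a chosen list, and no test was made.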
